A study of Mus musculus with 4 samples.

Results

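Glucose and lactate transport was followed through 10 genes in single-cell transcriptomes of mouse testis. The genes were taken by symbol from the 55450 gene rows of the count matrices. They are the hexose transporters Slc2a1, Slc2a3, Slc2a5 and Slc2a8, the monocarboxylate transporters Slc16a1, Slc16a3 and Slc16a7, the chaperones Bsg and Emb, and the hexokinase Hk1. Of the 4 libraries, 2 came from mice fed a high-fat diet (HFD 1, HFD 2) and 2 from normally fed mice (normal diet; ND 1, ND 2), and each was made from enzymatically dissociated testis with droplet 3' sequencing. The labels give no strain, age, length of feeding or animal number, and do not say that the 2 libraries of a diet came from separate mice, so p-values measure only the spread between these libraries, which may be technical. The question put by the design is how the cells of the testis differ between the diets.

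Germ cells past the earliest stages live behind the barrier formed by Sertoli cells and are fed largely with lactate that Sertoli cells make from glucose. Facilitative glucose transporters of the Slc2a family carry hexoses down their gradient, hexokinase traps glucose inside the cell by phosphorylation, and proton-linked transporters of the Slc16a family carry lactate and pyruvate out of one cell and into the next. The Slc16a transporters reach the cell surface with a single-pass glycoprotein partner, basigin (Bsg) or embigin (Emb). Spermatids use lactate readily, and mature sperm depend on glycolysis for movement.

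Each library held between 143748262 and 154221188 UMIs (unique molecular identifiers, 1 for each captured transcript), in 13561 to 15290 barcodes, beside about 13000 recovered cells per channel by the labels. Between 13122 and 14468 cells were kept, with medians of 5509.5 to 5946 UMIs per cell. The lowest UMI count of a barcode was 1638 and 1468 in the HFD and 1141 and 1171 in the ND libraries. Between 42 and 65 cell barcodes were shared by each pair of libraries. Clusters were named only from fixed markers, which gave 10 classes, each called by its likeness and together holding 34618 of 54917 cells. The germ cell classes were spermatogonia-like, early spermatocyte-like, pachytene and later spermatocyte-like (shortened here to pachytene-like), round spermatid-like and elongating spermatid-like. The somatic classes were Sertoli-like, Leydig-like, fibroblast-like, macrophage-like and lymphocyte-like, and no peritubular myoid, endothelial or erythroid class was named. A cluster of 29 cells was most like endothelial cells by its markers but was left unnamed as shallow. Unnamed clusters, mostly shallow ones, held 41.2% and 37.2% of the cells of HFD 1 and HFD 2 and 35.0% and 34.8% of those of ND 1 and ND 2. The rule that left them unnamed was set after the data had been seen. Their median depth was 2281 and 2188 UMIs with HFD and 1680 and 1753 with ND. Sertoli-like cells had 3489 and 3084 against 2474 and 2537. Depth was also higher in both HFD libraries in the other somatic classes and in early spermatocyte-like cells, and overlapped in the remaining germ cell classes. The part of depth in the cell shares was not tested, and diet ratios with thinned cells are given below. Cluster 7, with 4110 of the 8464 pachytene-like cells, was named less surely. It had 4 detected pachytene markers, none among its top 10 genes, and its mean standardised marker level over clusters was higher for early spermatocyte (0.397) than for pachytene markers (0.212).

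Levels are in CPM, the UMIs of a gene per 1000000 UMIs of a class, and mean levels run over all 4 libraries of both diets. They are shares of the UMIs counted and do not give UMIs per cell, and depth differed between classes. In HFD 1 the median was 27640 UMIs per pachytene-like, 12970 per round and 6284 per elongating spermatid-like cell. It was 7136 per Leydig-like and 3263 per macrophage-like cell. The 10 genes fell into patterns that differed sharply by cell class. Slc2a3, Slc2a5, Slc2a8, Slc16a7, Bsg and Hk1 differed severalfold between germ cell clusters, Slc16a1, Slc16a3 and Slc2a1 were highest in Leydig-like cells, Emb was highest in lymphocyte-like cells, and over whole classes Bsg had the smallest range. The genes were chosen by name with earlier results of these data known, and the differences between classes are descriptions without a test.

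**Figure D1:**
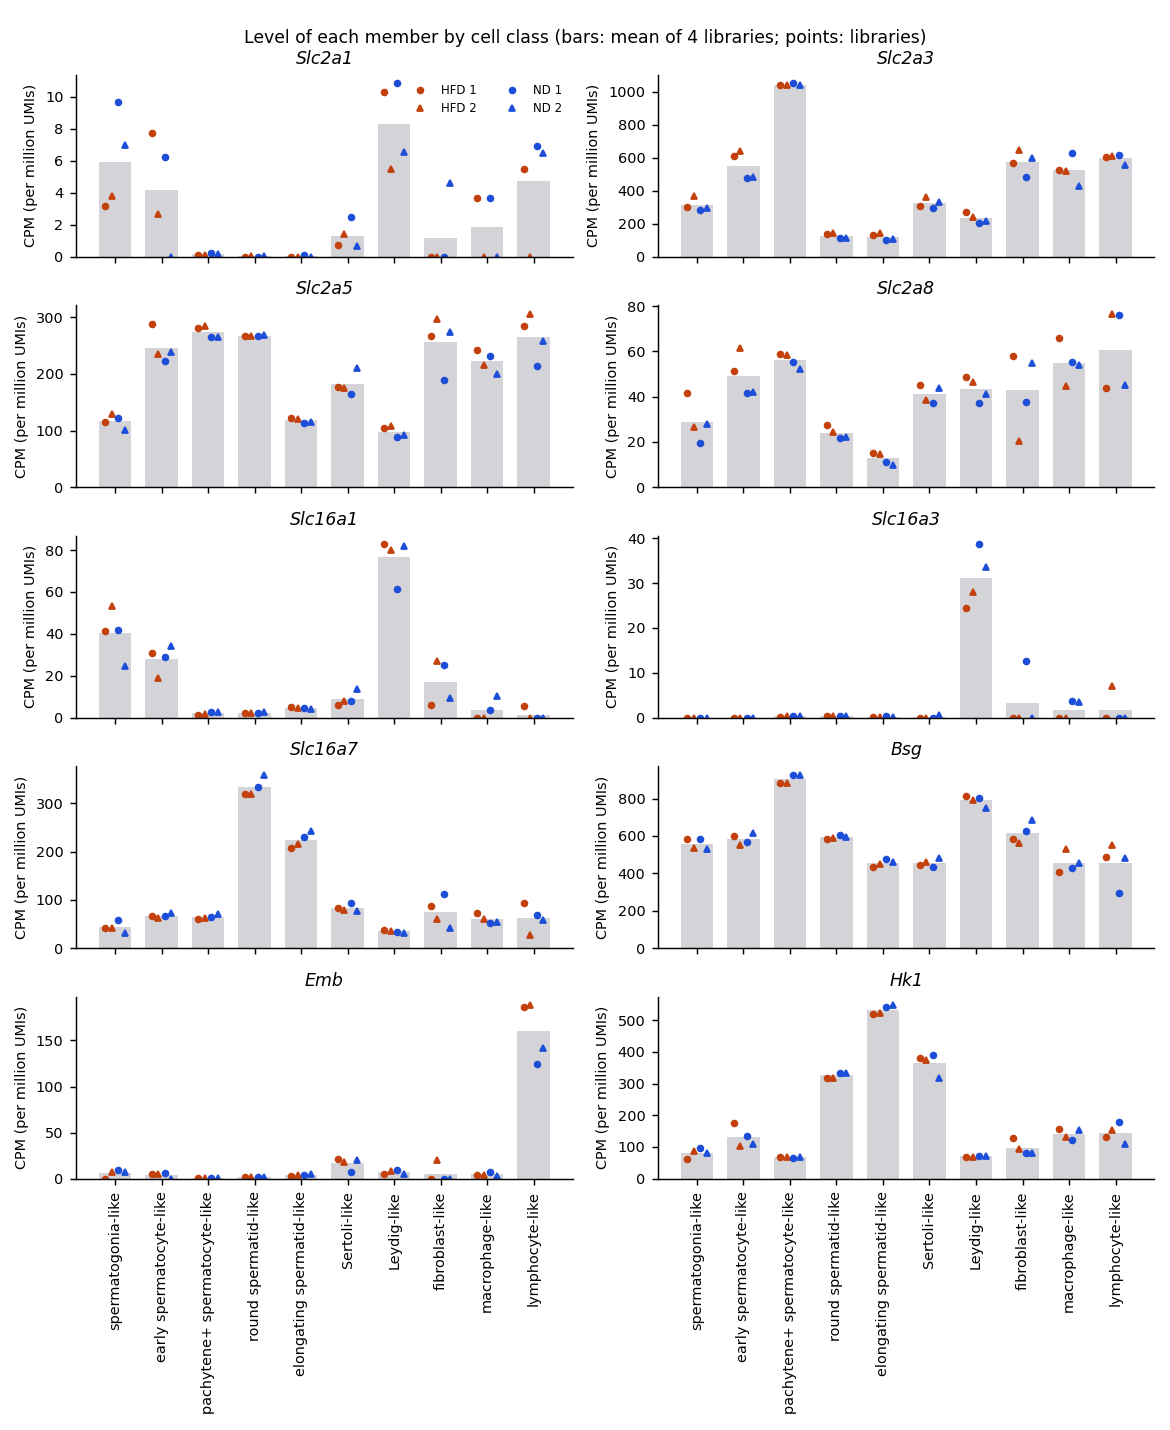
CPM of each gene (vertical axes, linear from 0) in the 10 cell classes; grey bars are means of 4 libraries and points are single libraries (orange HFD, blue ND, circle replicate 1, triangle replicate 2). Slc2a3 peaks in pachytene-like cells at 1045 CPM, Slc16a7 in round spermatid-like cells at 333 CPM, Hk1 in elongating spermatid-like cells at 533 CPM, Slc16a3 in Leydig-like cells at 31.2 CPM and Emb in lymphocyte-like cells at 160 CPM.

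Slc2a3 (ENSMUSG00000003153; chr6:122727809-122801640, minus strand; GENCODE M21 on GRCm38 for all gene positions here) encodes a glucose transporter of high affinity. Its level in pachytene-like cells was 1040 and 1044 CPM in the HFD and 1053 and 1042 CPM in the ND libraries, a mean of 1045 ± 5.63 (SD, n = 4). Every other class lay lower, and no library of another class reached these values. In round spermatid-like cells it was 125 ± 15.3 CPM and in elongating spermatid-like cells 121 ± 18.6, the lowest of the 10 classes, and the ranges of these neighbours overlapped. The gene's annotated body overlaps Gm4482 on the same strand, and reads in the shared stretch could have been split or dropped by the counting. That limit also applies to Slc16a1, which overlaps Gm43581 and Gm43585 on its strand, and to Slc2a1, which overlaps Mir1957a.

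Slc2a5 (ENSMUSG00000028976; chr4:150119283-150144169, plus strand) encodes the fructose transporter. Its mean was 274 ± 10.2 CPM in pachytene-like cells and 267 ± 0.735 in round spermatid-like cells, 2 classes whose ranges overlapped. In elongating spermatid-like cells it was 118 ± 4.01 CPM. Slc2a8 (ENSMUSG00000026791; chr2:32972990-32982083, minus strand), which encodes a hexose transporter held largely on internal membranes, reached 56.2 ± 3.13 CPM in pachytene-like, 24.0 ± 2.58 in round spermatid-like and 12.8 ± 2.53 in elongating spermatid-like cells. The lymphocyte-like mean of Slc2a8, 60.4 ± 18.4 CPM, was nominally higher but rested on 37 UMIs, and its range overlapped that of pachytene-like cells.

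Slc2a1 (ENSMUSG00000028645; chr4:119108711-119137983, plus strand), the widely expressed basal glucose transporter, was scarce. Only 140 UMIs of it were counted in all kept cells. Its highest class was Leydig-like, with 10.3 and 5.48 CPM in the HFD and 10.8 and 6.53 CPM in the ND libraries, a total of 61 UMIs. The ranges of Leydig-like, spermatogonia-like, lymphocyte-like and early spermatocyte-like cells overlapped from one to the next. Round spermatid-like cells had 4 UMIs of Slc2a1 and elongating spermatid-like cells had 2.

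The monocarboxylate transporters divided the testis between them. Slc16a7 (ENSMUSG00000020102; chr10:125219270-125389465, minus strand), a transporter with high affinity for lactate and pyruvate, was highest in spermatids. In round spermatid-like cells it was 319 and 320 CPM in the HFD and 335 and 359 CPM in the ND libraries, a mean of 333 ± 18.6 (SD, n = 4). Elongating spermatid-like cells had 224 ± 15.4 CPM, which was below every round spermatid-like value, and no other class had a mean above 83.0 CPM, that of Sertoli-like cells.

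Slc16a1 (ENSMUSG00000032902; chr3:104638668-104658462, plus strand), which moves lactate in either direction, was highest in Leydig-like cells. The 4 libraries there gave 82.8 and 80.1 CPM in the HFD and 61.3 and 82.1 CPM in the ND libraries. Spermatogonia-like cells followed at 40.3 ± 11.9 CPM and early spermatocyte-like cells at 28.2 ± 6.69, with overlapping ranges, and pachytene-like cells had 2.10 ± 0.765. Slc16a1 was high in the earliest germ cells and low in the pachytene-like cells in which Slc2a3 peaked.

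Slc16a3 (ENSMUSG00000025161; chr11:120948480-120960868, plus strand), the transporter known for lactate export from glycolytic cells, was concentrated in Leydig-like cells at 31.2 ± 6.26 CPM, with 233 of its 428 UMIs. Sertoli-like cells, the class known for feeding lactate to germ cells, had 1 UMI of it in 6019333. Early spermatocyte-like cells had 0 UMIs of Slc16a3 in 1624991, a count that allows up to 1.85 CPM, and spermatogonia-like cells had 0 in 1172379, which allows up to 2.56 CPM. These limits cover counting error only. No class other than Leydig-like had a library above 12.6 CPM, a value given by 2 UMIs in the fibroblast-like cells of ND 1.

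Of the chaperones, Bsg (ENSMUSG00000023175; chr10:79704491-79711969, plus strand) was the more even. Its mean ran from 455 ± 109.5 CPM in lymphocyte-like cells to 905 ± 24.5 in pachytene-like cells, a 1.99-fold range, with Leydig-like cells next at 790 ± 27.2. The Leydig-like and pachytene-like ranges did not overlap. Emb (ENSMUSG00000021728; chr13:117208536-117274415, plus strand) was 187 and 188 CPM in the HFD and 124 and 142 CPM in the ND libraries of lymphocyte-like cells. Sertoli-like cells came next at 16.6 ± 6.21 CPM, and pachytene-like cells were lowest at 1.02 ± 0.123.

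Hk1 (ENSMUSG00000037012; chr10:62268855-62379908, minus strand), the hexokinase that starts glycolysis, was high in spermatids. It was 521 and 522 CPM in the HFD and 542 and 547 CPM in the ND libraries in elongating spermatid-like cells, a mean of 533 ± 13.4 (SD, n = 4). Sertoli-like cells had 365 ± 33.4 CPM and round spermatid-like cells 326 ± 9.71, with overlapping ranges. Pachytene-like cells had the lowest Hk1 at 67.8 ± 1.44 CPM, where Slc2a3 and Bsg were at their highest.

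Germ cell RNA was present in every somatic class, which bears on the germ-line genes there. For 18 markers of pachytene-like, round and elongating spermatid-like cells, the level in Leydig-like cells relative to the whole testis ran from 0.120 to 0.417. Slc2a3, Slc2a5, Slc16a7 and Hk1 lay within that range in Leydig-like cells, with ratios of 0.411, 0.384, 0.194 and 0.303. By the same measure Slc16a3 was at 39.6, Slc2a1 at 32.2 and Slc16a1 at 20.03 times its whole-testis level, above all 18 markers. In Sertoli-like cells the markers ran from 0.179 to 3.31, and Slc2a1 at 5.09 and Emb at 7.60 were above them. The Slc2a1 value rested on only 8 UMIs. Hk1 at 1.58, Slc16a7 at 0.463 and Slc2a3 at 0.575 were within. In lymphocyte-like cells Emb stood at 73.2 against a highest marker ratio of 1.44, and Slc2a8 at 1.37 was within the marker range. Bsg was above the markers in Leydig-like cells, at 1.10. It was within their range in Sertoli-like (0.635), macrophage-like (0.636), lymphocyte-like (0.634) and fibroblast-like (0.857) cells. Slc2a3, Slc2a5, Slc16a7 and Hk1 were within the marker range in all 5 somatic classes. The part of germ cell RNA in the somatic levels of these genes, and in those of Bsg outside Leydig-like cells, was not tested.

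The germ cell clusters were put in stage order within each class by other genes, the meiotic cyclin Ccna1 and the late spermatid gene Spem1. The pachytene-like clusters were, from early to late, 7, 2 and 3, the round spermatid-like clusters 10, 8, 12, 13 and 14, and the elongating spermatid-like clusters 19, 1, 0 and 4. In this order Slc2a3 and Bsg were highest in cluster 7, Slc2a5 and Slc2a8 in cluster 3, Slc16a7 in cluster 14 and Hk1 in cluster 4. Slc2a1 and Slc16a3 reached at most 0.380 and 0.560 CPM in these clusters. The order of the peaks was not tested. Slc2a3 fell from a mean of 1170 CPM in cluster 7 to 837 in cluster 3 and 233 in cluster 10, reached 79.0 in cluster 19, and stood at 217 in cluster 4. Ccna1 was 32.6 CPM in cluster 19 and 105 in cluster 4, where the median cell held 13140 and 2875 UMIs. The part of RNA from other cells in the late Slc2a3 level was not tested. Slc2a5 and Slc2a8 both peaked later than Slc2a3, in cluster 3, at 388 and 114 CPM. Slc2a8 then dropped faster, to 10.2 CPM in cluster 12, where Slc2a5 was still at 270 CPM.

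Slc16a7 climbed as those genes declined. It was 61.7 CPM in cluster 3, 174 in cluster 10, 357 in cluster 12 and 440 in cluster 14, stayed at 414 in cluster 19, and was 83.1 in cluster 1. Hk1 rose at nearly the same steps, from 87.7 CPM in cluster 3 to 202 in cluster 10 and 401 in cluster 14, stood at 381 in cluster 19, and was 487, 757 and 1153 CPM in clusters 1, 0 and 4. As a share of UMIs, Slc16a7 was thus down in the late elongating spermatid-like clusters, where the share of Hk1 was highest. The median cell held 13340 UMIs in cluster 14 and 2875 in cluster 4, so a rise in CPM here need not be a rise in UMIs per cell. Bsg declined from 984 CPM in cluster 7 to 490 in cluster 14, stood at 688 in cluster 19 and fell to 187 in cluster 0.

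Slc16a1 was highest at the early end of this order. It was 40.3 CPM in spermatogonia-like cells and 4.16, 1.01 and 0.356 CPM in clusters 7, 2 and 3. The early spermatocyte-like clusters 17.1, 17.3 and 17.2 had 48.7, 40.4 and 15.7 CPM (14 to 16 UMIs each), and no stage order is taken among them. Their Ccna1, at 92.0, 139 and 186 CPM, was below the 218 CPM of the fibroblast-like cluster 22.2. Cluster 17.3 had Stra8 and Prdm9 among its leading genes. A small second rise took it from 0.303 CPM in cluster 8 to 7.42 in cluster 14, after which it was 5.94, 4.22, 2.31 and 2.44 CPM in clusters 19, 1, 0 and 4. Cluster 16, with 723 cells and Azin2, Smcp and Osbp2 among its leading genes, could not be named under the rule. It had the highest Hk1 of any cluster, with 2122 and 1853 CPM in the HFD and 1710 and 1723 CPM in the ND libraries.

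**Figure D2:**
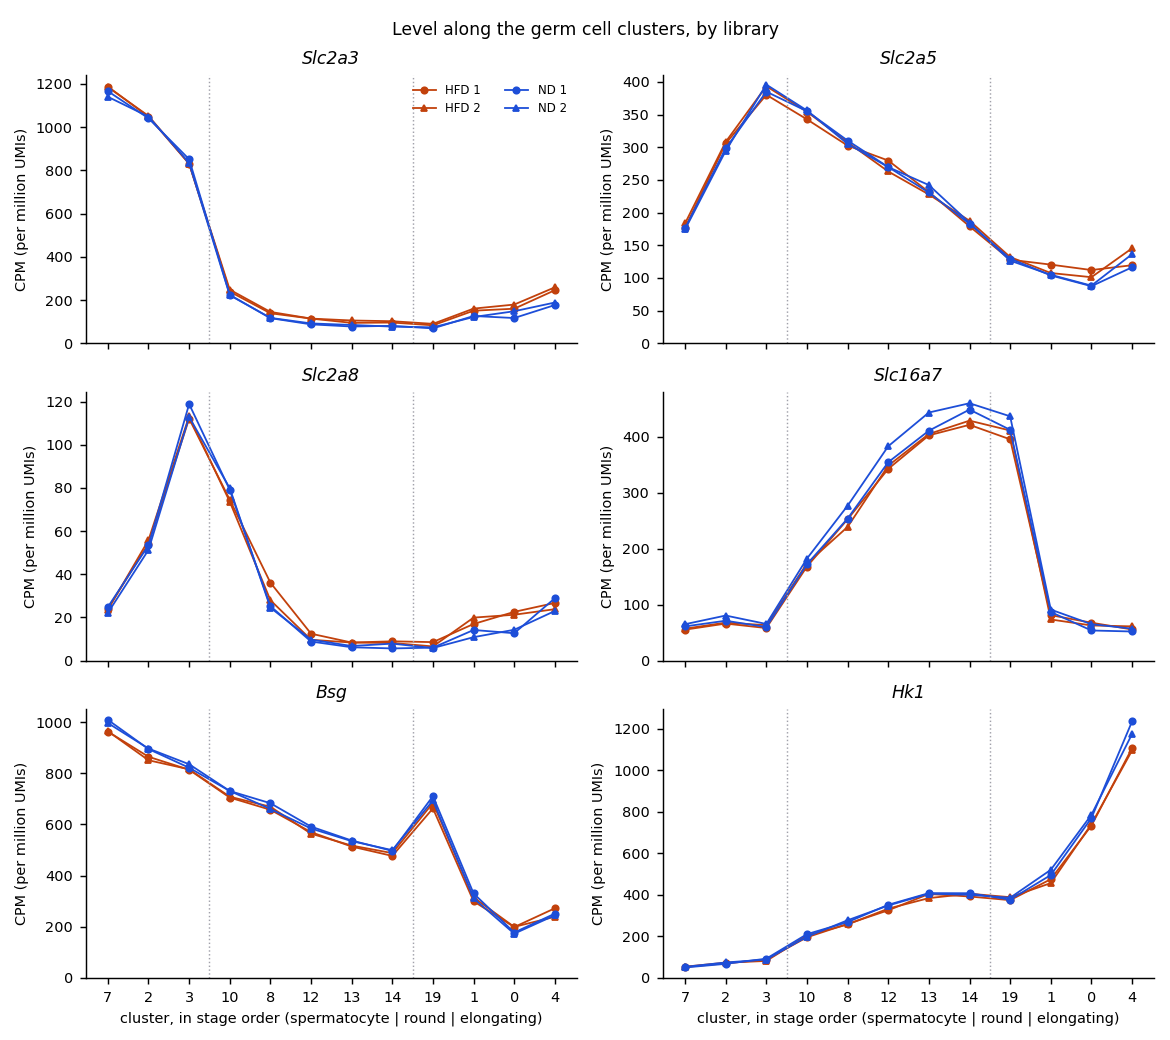
CPM of 6 members (vertical axes, linear from 0) in the 12 pachytene-like, round and elongating spermatid-like clusters in stage order, 1 line per library; dotted lines part the 3 classes. Slc2a3 drops between clusters 3 and 10, Slc2a5 and Slc2a8 peak in cluster 3, Slc16a7 peaks in cluster 14 at 440 CPM, and Hk1 rises to 1153 CPM in cluster 4, while the 4 libraries follow the same course.

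Across all 40 combinations of class and library, the likeness of 2 genes was measured by Pearson's r of log2(CPM + 1). These points share libraries and free RNA, and r is given as a description. Slc2a3 and Slc2a8 were the most alike pair of members (r = 0.777), followed by Slc16a7 and Hk1 (r = 0.768), and Slc2a3 and Hk1 were the most opposed (r = -0.642). Among all genes with at least 20 CPM in a class, Slc2a3 was closest to Mllt10 (0.976) and Sprtn (0.969), Slc2a5 to Slc22a16 (0.961) and Rnf32 (0.960), and Slc2a8 to Krcc1 (0.890) and Rab21 (0.881). Slc16a7 was closest to Cnbd2 (0.918) and Ttll9 (0.914), and Hk1 to 1110017D15Rik (0.970) and Spaca9 (0.961). The closest to Slc16a1 were Abcd3 (0.878) and Smarcd3 (0.870), both highest in Leydig-like cells. For Slc16a3 they included Nqo1 (0.883), for Emb Txk (0.851) and Trdc (0.829), for Slc2a1 Tcf3 (0.803) and Tars (0.788), and for Bsg Lsm10 (0.764) and Ndufb8 (0.724).

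The windows upstream of these genes differed in base composition and motifs. RefSeq windows on GRCm38.p6 matched 7 of the 10 members, and the 250 bases before the start are printed for the 3 members whose window touched no annotated exon of the gene. They stand for the late spermatocyte pattern (Slc2a8, chr2:32982084-32982333, minus strand), the Leydig and early germ cell pattern (Slc16a1, chr3:104638414-104638663, plus strand) and the spermatid pattern (Hk1, its distal start, chr10:62379909-62380158, minus strand). Capitals mark the CCAAT box, the GC box GGGCGG, the E-box CACGTG or the cAMP-response core TGACG on either strand, with overlapping matches counted apart. The CCAAT box was added to the search after the Slc2a8 window had been read.
Slc2a8: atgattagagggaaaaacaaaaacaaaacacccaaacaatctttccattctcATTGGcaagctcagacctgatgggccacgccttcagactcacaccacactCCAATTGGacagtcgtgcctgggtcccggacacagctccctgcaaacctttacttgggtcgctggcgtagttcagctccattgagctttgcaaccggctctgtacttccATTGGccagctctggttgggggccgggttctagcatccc
Slc16a1: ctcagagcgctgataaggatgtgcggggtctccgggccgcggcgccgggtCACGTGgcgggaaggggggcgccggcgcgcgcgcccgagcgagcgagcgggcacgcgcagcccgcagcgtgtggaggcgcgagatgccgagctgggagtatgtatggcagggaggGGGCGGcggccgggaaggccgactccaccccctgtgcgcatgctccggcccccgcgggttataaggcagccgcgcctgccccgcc
Hk1: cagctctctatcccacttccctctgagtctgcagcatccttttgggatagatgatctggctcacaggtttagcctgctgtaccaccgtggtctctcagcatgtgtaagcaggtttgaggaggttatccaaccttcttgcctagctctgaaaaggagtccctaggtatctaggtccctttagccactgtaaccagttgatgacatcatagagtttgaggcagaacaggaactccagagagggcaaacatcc
The Slc2a8 window held 4 matches to CCAAT, a motif present in 33.8% of the 32851 windows of this length. In the Slc16a1 window there was 1 GGGCGG, which 32.7% of windows hold, and 1 CACGTG, which 6.02% hold, and 76.4% of its bases were G or C. The Hk1 window had 49.6% G or C and no match to any of the motifs. RefSeq places another Hk1 start 39487 bases downstream, inside the gene, and 3' counts do not tell transcripts from the 2 starts apart. A match is a stretch of letters in a window and no evidence of binding.

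Diet was compared on UMIs summed per library, in the whole testis and within 9 classes that had at least 50 cells in every library. Spermatogonia-like cells had fewer and were not tested. Ratios are HFD over ND on the log2 scale with the standard error (SE) of the fit, values by diet are CPM after TMM scaling, and a gene is called at an adjusted p under 0.05 (edgeR quasi-likelihood test, Benjamini-Hochberg adjustment over all genes of the compartment).

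In the whole testis 6 of the 10 members were called. Slc2a3 and Slc2a8 were higher in the HFD libraries, and Slc16a1, Slc16a3, Slc16a7 and Hk1 were lower. The background was high, since 34.3% of all 25470 tested genes were called, so a call in the whole testis was common. Over the 10 members the median log2 ratio was -0.16, and over all genes it was -0.02. In a sum over a tissue, fewer cells of a type and less RNA per cell cannot be told apart.

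Slc2a3 in the whole testis was 611 and 638 CPM in the HFD and 501 and 514 CPM in the ND libraries. Both HFD libraries lay above both ND libraries, with a log2 ratio of 0.30 ± 0.04 (SE) and an adjusted p of 5.4e-05 by edgeR. Slc16a7, the spermatid transporter, was 163 and 157 CPM in the HFD and 193 and 205 CPM in the ND libraries (log2 ratio -0.31 ± 0.04, adjusted p = 7.2e-05, edgeR). Hk1 followed Slc16a7, with 221 and 209 CPM against 251 and 246 CPM and a ratio of -0.21 ± 0.04 (adjusted p = 0.0011, edgeR).

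Slc2a8 was 49.0 and 47.0 CPM in the HFD and 40.4 and 39.7 CPM in the ND libraries, a ratio of 0.26 ± 0.04 (adjusted p = 0.00036, edgeR). Slc16a3 and Slc16a1, both highest in Leydig-like cells, were lower. For Slc16a1 that class held 552 of 2089 UMIs, beside 428 in pachytene-like, 421 in round and 302 in elongating spermatid-like cells. Slc16a3 had 81 and 88 UMIs in the HFD and 130 and 129 in the ND libraries (log2 ratio -0.69 ± 0.15, adjusted p = 0.0027, edgeR). Slc16a1 had 483 and 467 UMIs against 552 and 587, a ratio of -0.33 ± 0.08 (adjusted p = 0.0059, edgeR). With cells thinned to 1000 UMIs the calls for Slc2a8 (0.18, adjusted p = 0.072), Slc16a1 (-0.43, 0.11) and Hk1 (-0.13, 0.061) were lost, and Slc16a3 was at -1.41.

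The remaining 4 members were not called in the whole testis. Slc2a1 had 29 and 26 UMIs in the HFD and 54 and 31 in the ND libraries, a ratio of -0.70 ± 0.29 (adjusted p = 0.075, edgeR). Slc2a5 had a ratio of 0.08 ± 0.04 (adjusted p = 0.097), Bsg of 0.01 ± 0.04 (adjusted p = 0.85) and Emb of -0.12 ± 0.12 (adjusted p = 0.49). The level of Bsg was thus close between the diets, at 719 and 722 CPM with HFD and 713 and 718 CPM with ND.

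Markers of the cell classes moved with these members. In the whole testis all 6 Leydig markers were called lower, and their summed level was 193 and 191 CPM in the HFD against 356 and 302 CPM in the ND libraries, a log2 ratio of -0.78 beside -0.69 for Slc16a3. All 6 round spermatid and all 6 elongating spermatid markers were called lower, with ratios of their sums of -0.35 and -0.24 beside -0.31 for Slc16a7 and -0.21 for Hk1. Of the 6 pachytene markers 5 were called higher and 1 lower, with a ratio of the sum of 0.16 beside 0.30 for Slc2a3. The shares of kept cells differed too. Leydig-like cells were 1.61% and 1.76% in the HFD against 2.53% and 2.65% in the ND libraries, round spermatid-like cells 21.4% and 21.5% against 26.4% and 26.7%, elongating spermatid-like cells 15.2% and 15.5% against 17.1% and 16.1%, and pachytene-like cells 15.5% and 19.1% against 13.1% and 14.1%, beside the different shares of unnamed cells. The part of cell numbers in the whole-testis ratios was not tested, and the ratios within classes follow.

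**Figure D3:**
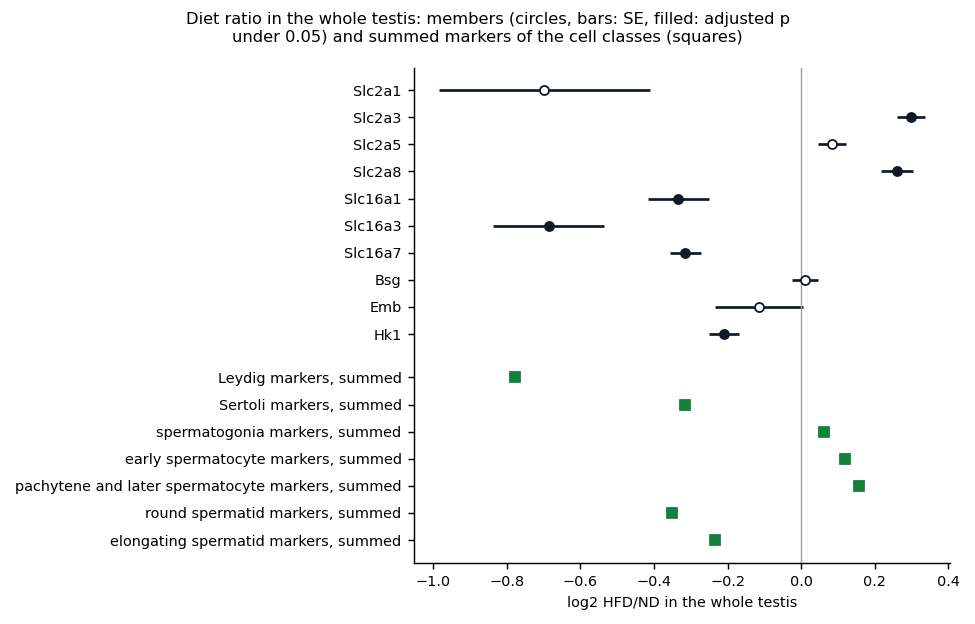
Log2 HFD over ND in the whole testis (horizontal axis, 0 marked) for the 10 members (circles with SE bars, filled where called) and for the summed markers of 7 cell classes (squares). Leydig markers lie at -0.78 near Slc16a3, round and elongating spermatid markers at -0.35 and -0.24 near Slc16a7 and Hk1, and pachytene markers at 0.16 on the same side as Slc2a3.

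Within classes 8 calls were made on members, all of them in the 3 large germ cell classes. In pachytene-like cells 3 of 9 tested members were called, against 13% of all genes, in round spermatid-like cells 1 of 9 against 1.48%, and in elongating spermatid-like cells 4 of 8 against 7.46%. The members were chosen with earlier results of these data known, so these shares are a description. The other 6 classes gave no member call in edgeR or DESeq2. Their backgrounds were 5.39% of genes in Leydig-like, 2.13% in macrophage-like, 0.555% in lymphocyte-like, 0.0271% in fibroblast-like, 0.0199% in Sertoli-like and 0% in early spermatocyte-like cells. At an unadjusted p under 0.05, edgeR had 2 members in Leydig-like cells, Slc2a3 and Slc16a3, 1 in early spermatocyte-like cells, Slc2a3, and 0 in the other 4 classes. Over all genes tested, 2114 of 11669 had such a p in Leydig-like cells, or 18.1%, so 2 of 10 members was near the background. In early spermatocyte-like cells, where no gene of any kind was called, 524 of 7029 had such a p.

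**Figure D4:**
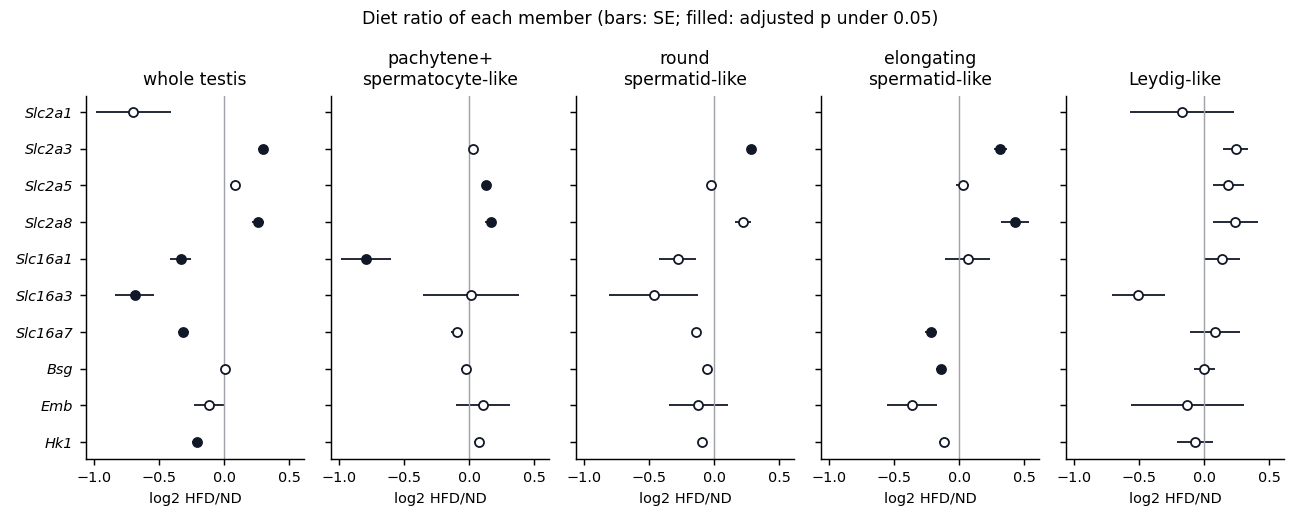
Log2 HFD over ND (horizontal axes) with SE bars for each tested member in the whole testis and 4 classes; filled circles are called. Slc2a3 is near 0 in pachytene-like cells at 0.03 and at 0.28 and 0.32 in round and elongating spermatid-like cells, and Slc16a1 is at -0.79 in pachytene-like and 0.14 in Leydig-like cells.

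Slc2a3 was called higher in spermatids of the HFD libraries. In round spermatid-like cells it was 134 and 139 CPM in the HFD and 112 and 113 CPM in the ND libraries, a log2 ratio of 0.28 ± 0.03 (adjusted p = 0.0020, edgeR). In elongating spermatid-like cells it was 130 and 138 CPM against 103 and 112 CPM, a ratio of 0.32 ± 0.05 (adjusted p = 0.00040, edgeR). In pachytene-like cells, where the gene is most abundant, the 4 libraries gave 1063, 1053, 1040 and 1026 CPM and a ratio of 0.03 ± 0.03 (adjusted p = 0.51). After TMM scaling the groups did not overlap in any of the 3 classes. In unscaled CPM those of pachytene-like cells did, at 1040 and 1044 with HFD and 1053 and 1042 with ND. Slc2a3 was also higher, but not called, in early spermatocyte-like (0.40 ± 0.15, adjusted p = 0.61, edgeR) and Leydig-like cells (0.24 ± 0.10, adjusted p = 0.13, edgeR). The groups did not overlap in either. Its ratio was 0.12 in Sertoli-like, 0.14 in fibroblast-like, 0.04 in lymphocyte-like and -0.06 in macrophage-like cells, all with overlap. The elongating call was lost without HFD 2 (0.27, adjusted p = 0.12) and with cells thinned to 1000 UMIs (0.19, adjusted p = 0.27), and the round call without the filter on low counts (0.27, adjusted p = 0.18).

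The difference between classes in this ratio was itself fitted. Slc2a3 changed more with diet in round spermatid-like than in pachytene-like cells by 0.23 ± 0.03 on the log2 scale (adjusted p = 5.4e-05), and more in elongating spermatid-like than in pachytene-like cells by 0.31 ± 0.05 (adjusted p = 0.0016), as an interaction in edgeR with a term for each library. In these fits 10.9% and 4% of all genes passed. The 10 pairs among germ cell classes were chosen after the data had been seen, for members called in one of the classes, so these p-values are not those of pairs chosen independently of the values. Of the 10, 2 passed. Without the library term the differences were again 0.23 and 0.31, with adjusted p of 0.026 and 0.063, so the second no longer passed.

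When single clusters were tested, the log2 ratios of Slc2a3 ran from 0.11 in cluster 10 to 0.33 in cluster 12 among the round spermatid-like clusters. Among the elongating ones they ran from 0.24 in cluster 0 to 0.37 in cluster 4, and in the 3 pachytene-like ones from -0.01 to 0.06. Slc2a3 was called in clusters 8, 12, 1 and 4, where 1.05%, 0.224%, 5.49% and 2.29% of all genes were called. Cluster 12 gave 114 and 114 CPM in the HFD and 88.3 and 92.6 CPM in the ND libraries (adjusted p = 0.0050, edgeR). Slc2a3 was not called in clusters 10, 13, 14, 19 and 0, where 0.0444%, 0.153%, 0.0635%, 0.0859% and 4.97% of genes were. Here and below, clusters are parts of the same 4 libraries, so a count of clusters is not a count of replicates. The share of all genes whose groups did not overlap is not given for any class or cluster. The diets also differed in the mix of round spermatid-like clusters. Cluster 10, with 233 CPM of Slc2a3 against 89.0 to 129 in the other round clusters, made up 24.2% and 23.2% of the class in the HFD and 18.4% and 18.8% in the ND libraries, and cluster 12, with 102 CPM, 19.8% and 19.5% against 23.9% and 24.7%. Among the elongating clusters, cluster 19 had 79.0 CPM against 140 to 217 in the others. It made up 19.9% and 20.97% of that class in the HFD and 23.4% and 23.4% in the ND libraries. The part of either mix in the class ratios and in their differences from pachytene-like cells was not tested.

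Pachytene markers moved with Slc2a3 in the spermatid classes, by less in the round ones. Their summed ratio was 0.07 in round spermatid-like cells, with 1 of 6 called higher (Pou5f2), and 0.25 in elongating spermatid-like cells, with 4 of 6 called higher. In the summed level the round spermatid-like HFD libraries gave 1980 and 1987 CPM and the ND libraries 1874 and 1916 CPM. In cluster 12 the same sum had a ratio of 0.06 beside 0.33 for Slc2a3, and in cluster 0 it had 0.34 beside 0.24. The part of spermatocyte RNA in the Slc2a3 ratio of spermatids, and in that of Slc2a8, which follows, was not tested.

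Slc2a8 was higher in pachytene-like and elongating spermatid-like cells of the HFD libraries. In elongating spermatid-like cells it was 14.9 and 14.4 CPM in the HFD and 11.4 and 10.2 CPM in the ND libraries, with a log2 ratio of 0.43 ± 0.11 (adjusted p = 0.015, edgeR). That call was lost without HFD 1 (0.41, adjusted p = 0.15), HFD 2 (0.45, 0.18) or ND 2 (0.36, 0.068), with doublets kept (0.33, 0.086) and with thinned cells (0.34, 0.52), and DESeq2 gave it no adjusted p. In round spermatid-like cells the ratio was 0.22 ± 0.06 (adjusted p = 0.079). No single cluster was called for Slc2a8, and the ratio was above 0 in 9 of the 12 germ cell clusters. It was 0.36 ± 0.10 in cluster 8 (adjusted p = 0.0503, edgeR) and lowest in cluster 4, at -0.14.

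The pachytene-like calls for Slc2a8, Slc2a5 and Slc16a1 were not seen when the clusters of the class were tested apart. At the level of the class, Slc2a5 was 288 and 287 CPM in the HFD and 263 and 261 CPM in the ND libraries (log2 ratio 0.13 ± 0.03, adjusted p = 0.017), Slc2a8 59.9 and 59.1 against 54.8 and 51.3 CPM (0.17 ± 0.04, adjusted p = 0.021), and Slc16a1 1.17 and 1.88 against 2.86 and 2.46 CPM (-0.79 ± 0.19, adjusted p = 0.016), all by edgeR. Without HFD 1 or HFD 2 the adjusted p was 0.16 or 0.094 for Slc2a5 (0.13 and 0.14) and 0.16 or 0.068 for Slc2a8 (0.16 and 0.18), which was 0.086 without ND 2 (0.12). Both calls were also lost with thinned cells (Slc2a5 0.23, adjusted p = 0.15; Slc2a8 0.0027, adjusted p = 0.996) and at Leiden resolution 2 (0.09 and 0.08), and that of Slc2a8 without the filter on low counts (0.18), where Slc16a1 also had an adjusted p of 0.056. DESeq2 called Slc2a5 and Slc2a8 and gave Slc16a1 no adjusted p. In clusters 7, 2 and 3 the ratios of Slc2a5 were 0.06, 0.07 and -0.00, and those of Slc2a8 were 0.04, 0.09 and -0.03, with none called where 2.6%, 2.52% and 0.292% of genes were. Slc16a1 had -0.70 ± 0.19 in cluster 7 (adjusted p = 0.051) and -0.45 ± 0.33 in cluster 2.

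The mix of clusters within the pachytene-like class also differed between the diets. Cluster 7, which is low in Slc2a5 and Slc2a8 and high in Slc16a1, made up 43.9% and 46.0% of the class in the HFD and 51.5% and 53.9% in the ND libraries. The part of this mix in the class ratios was not tested, and for Slc16a1 the ratio within cluster 7 was -0.70 beside -0.79 in the class. For Slc16a1 the class call rested on 69 and 114 UMIs in the HFD and 128 and 117 in the ND libraries, and without HFD 1 the ratio was -0.49 (adjusted p = 0.15). Leydig markers were lower in the same cells, with 3 of 6 called lower, none at 0 and summed levels of 10.8 and 11.3 CPM in the HFD and 15.1 and 17.5 CPM in the ND libraries, and their part in the Slc16a1 ratio was not tested.

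Slc16a1 in Leydig-like cells, where it is most abundant, did not follow. The libraries gave 82.1 and 80.6 CPM with HFD and 63.9 and 83.6 CPM with ND, a log2 ratio of 0.14 ± 0.14 (adjusted p = 0.66, edgeR), and the groups overlapped. The ratio in pachytene-like minus that in Leydig-like cells was -0.90 ± 0.21 (SE, interaction in edgeR with a term for each library, in which 3.11% of genes passed). This was 1 of 16 pairs taken because the gene was called in one class and had a ratio of the opposite sign in another with a mean level of at least 20 CPM. The pairs were thus chosen on the difference fitted, which is given here as a description. A p-value of it would in part restate that choice. For Slc2a5 the difference of pachytene-like minus round spermatid-like cells was 0.17 ± 0.03 (10.9% of genes passed in that fit).

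The Leydig-like value of Slc16a3 was lower with HFD but was not called. The counts were 38 and 41 UMIs in the HFD and 82 and 72 in the ND libraries, or 24.2 and 28.2 against 40.3 and 34.2 CPM, without overlap (log2 ratio -0.51 ± 0.20, adjusted p = 0.15, edgeR). Of the 6 Leydig markers 3 were called lower within the same cells, with a ratio of the sum of -0.26. At Leiden resolution 2 the cells of this class lay mostly in clusters 26.0 to 26.3, some of which the diets filled unequally. Cluster 26.1, led by Klk1b21, Insl3 and Star, had 32 and 41 cells in the HFD and 179 and 172 in the ND libraries, and cluster 26.0, led by Bhmt and Aldh1a1, had 73 and 80 against 46 and 67. Cluster 26.3, with 61 cells led by Pf4 and macrophage genes such as C1qa, was macrophage-like at that resolution. Over the whole Leydig-like class 0 of 5 tested macrophage markers were called, with summed levels of 106 and 169 CPM in the HFD and 115 and 119 CPM in the ND libraries. Of 5 tested fibroblast markers 2 were called lower in the class, with a ratio of the sum of -0.59. The part of the cluster mix and of fibroblast RNA in the Leydig-like ratios of Slc16a3, Slc16a1 and the list genes was not tested. The whole-testis call for Slc16a3 thus had no called counterpart inside the class that holds most of its UMIs.

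Slc16a7 was lower in elongating spermatid-like cells of the HFD libraries, at 207 and 210 CPM against 234 and 249 CPM (log2 ratio -0.22 ± 0.04, adjusted p = 0.0037, edgeR). Without HFD 1 or HFD 2 it was -0.20 or -0.23 and no longer called (adjusted p = 0.11 and 0.12), and with thinned cells it was -0.26 (adjusted p = 0.13). Of the 6 elongating spermatid markers 4 were called lower in the same cells, with a ratio of the sum of -0.06 and none at 0, and their part in the ratios of Slc16a7, Bsg and Hk1 there was not tested. In round spermatid-like cells, where it is highest, the values were 318 and 318 CPM against 337 and 362 CPM, and the ratio was -0.14 ± 0.03 (adjusted p = 0.065). In the 12 germ cell clusters, which are parts of the same 4 libraries, the ratios of Slc16a7 ran from -0.26 to 0.02. The single cluster called was cluster 1, at -0.26 ± 0.08 (adjusted p = 0.046, edgeR), where 5.49% of all genes were called. Cluster 19, with 414 CPM of Slc16a7, made up 19.9% and 20.97% of the elongating spermatid-like cells in the HFD and 23.4% and 23.4% in the ND libraries, and the ratio within it was -0.11 ± 0.04 (adjusted p = 0.36).

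Bsg was lower in elongating spermatid-like cells by a small margin, at 431 and 438 CPM with HFD and 484 and 474 CPM with ND (log2 ratio -0.14 ± 0.04, adjusted p = 0.022, edgeR), and without HFD 1 or HFD 2 it was -0.13 or -0.16 and not called (adjusted p = 0.23 and 0.21). The call was also lost with doublets kept (-0.13) and with thinned cells (-0.21, adjusted p = 0.073). It was not called in any single germ cell cluster, where its ratios ran from -0.12 to 0.06. Cluster 19, the smaller share of the class in the HFD libraries given above, had 688 CPM of Bsg against 187 to 314 in the other elongating clusters, and 6.73 CPM of Slc2a8 against 15.5 to 25.6. The part of that mix in the class ratios of Bsg, Slc2a8 and Slc16a7 was not tested. Emb, the other chaperone, had a ratio of -0.36 ± 0.19 in the same class (adjusted p = 0.28) and 0.47 ± 0.29 in lymphocyte-like cells (adjusted p = 0.76), where 34 and 27 UMIs with HFD stood against 18 and 22 with ND.

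Hk1 was called lower in clusters 4 and 1 when the elongating clusters were taken apart, where 2.29% and 5.49% of all genes were called. In cluster 4 it was 1099 and 1074 CPM in the HFD and 1309 and 1234 CPM in the ND libraries, a log2 ratio of -0.23 ± 0.06 (adjusted p = 0.0081, edgeR). In cluster 1 the values were 469 and 448 against 504 and 539 CPM (-0.18 ± 0.05, adjusted p = 0.0088), and in cluster 0 the ratio was -0.20 ± 0.07 (adjusted p = 0.066). Elongating spermatid markers were called lower in the same clusters, 4 of 6 in cluster 4, 3 of 6 in cluster 1 and 5 of 6 in cluster 0, with ratios of their sums of -0.11, -0.05 and -0.16. Pachytene markers had ratios of 0.16, 0.25 and 0.34 there, with 0, 2 and 1 called higher, and the part of either in the Hk1 ratios was not tested. Over the whole elongating spermatid-like class the ratio was -0.12 ± 0.04 (adjusted p = 0.052), and in round spermatid-like cells it was -0.09 ± 0.03 (adjusted p = 0.10). In cluster 16, where Hk1 is highest, the HFD libraries were above the ND libraries with a ratio of 0.30 ± 0.15 (adjusted p = 0.97), and 0% of the 5436 genes tested there were called by edgeR, 240 of which had an unadjusted p under 0.05.

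The other genes of glucose and lactate handling were described from 5 lists of 69 genes. In the whole testis 57 were tested, 7 were called higher and 22 lower, where 34.3% of all genes were called, with a median log2 ratio of -0.06 beside -0.02 for all genes. The glycolysis list had 2 higher and 12 lower of 23 tested. Among the higher were Ldhal6b (1546 CPM with HFD against 1396 with ND, log2 ratio 0.15) and Ldha (939 against 855 CPM, 0.14), both lactate dehydrogenase genes, Pfkm (0.18), a phosphofructokinase, and Mpc1 (0.17), a subunit of the mitochondrial pyruvate carrier. Lower were Nptn (-0.41), a relative of basigin, Pfkfb3 (-0.37), an activator of glycolytic flux, Aldoart2 (-0.33), an aldolase of the testis, and Pkm (-0.32), the pyruvate kinase.

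In pachytene-like cells 2 of the 46 tested list genes were called higher and 7 lower, where 13% of all genes were called. The higher were Pgk2 (log2 ratio 0.14), the phosphoglycerate kinase of germ cells, and Pfkm (0.13). Tpi1, triosephosphate isomerase, was 171 and 172 CPM with HFD and 214 and 213 CPM with ND (-0.31), and Gapdhs (-0.32), Gapdh (-0.28) and Gpi1 (-0.22) were also lower. Spermatid markers were lower in the same cells, with 4 of 6 round spermatid markers called lower (ratio of the sum -0.44) and 3 of 6 elongating spermatid markers (-0.28), none at 0, and their part in these ratios was not tested. In round spermatid-like cells 1 of 44 was called, against 1.48% of all genes, Arrdc3 (-0.25), an arrestin-domain protein, and the glycolysis list had a median of -0.07 with none of 21 called by edgeR.

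In elongating spermatid-like cells 2 of 38 list genes were called higher and 4 lower, where 7.46% of all genes were called, the latter all glycolytic enzymes. These were Pkm (-0.20), Tpi1 (-0.16), Aldoa (-0.15) and Gpi1 (-0.14), of which Gpi1, the next enzyme after hexokinase, was 529 and 523 CPM with HFD and 574 and 584 CPM with ND. Aldoa has a second row of the same symbol in the matrix, and reads could have been split between them. Pfkp, another phosphofructokinase, was higher (0.24). In the same cells 4 of 6 elongating spermatid markers were called lower and 4 of 6 pachytene markers higher (ratios of the sums -0.06 and 0.25), and the share of cluster 19 differed as given above. The part of either in the ratios of these list genes was not tested. Hk1 and Slc16a7 lay on the same side as these 4 enzymes, and Slc2a3 and Slc2a8 on the opposite side.

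In Leydig-like cells 2 of 44 list genes were called higher and 1 lower, a share near the 5.39% of all genes called there. The higher were Ldhc (2443 CPM with HFD against 1872 with ND, log2 ratio 0.38) and Ldhal6b (0.32), lactate dehydrogenases known from germ cells. Pachytene markers were also higher there, with 3 of 5 tested called and a ratio of the summed level of 0.44, and their part in the Ldhc and Ldhal6b ratios was not tested. The lower gene was Ldhd, a D-lactate dehydrogenase, at 29.9 and 35.1 CPM with HFD and 47.7 and 48.9 CPM with ND (-0.57). In Sertoli-like, macrophage-like, lymphocyte-like, fibroblast-like and early spermatocyte-like cells none of the 20 to 36 tested list genes was called by edgeR.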

How the data were processed

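The deposited files were 10x gene by barcode matrices of UMI counts, 1 set for each of 4 mouse testis libraries, written by software version 3.0.2 per the file headers, on build mm10 per the submitters' processing notes. The aligner, the annotation and the use of strand in counting are not given in the sources used here. All 55450 gene rows had the same ID and symbol in GENCODE M21. Libraries were grouped by the diet in the labels.

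Barcodes under 200 genes or over 20% mitochondrial UMIs were dropped, and doublets called by Scrublet in scanpy 1.11.5 (3.11% to 5.94% per library) were removed. Cells of all libraries were clustered together (2000 variable genes without the 10 members and the pathway lists, 30 principal components, Leiden resolution 1). A class needed 3 detected markers. The naming thresholds were chosen after the data had been seen, and the members and lists were chosen with earlier results of these data known. UMIs were summed per library and class and tested with edgeR 4.0.16 (R 4.3.3; filterByExpr, TMM, quasi-likelihood test, Benjamini-Hochberg adjustment over all genes tested). The test was first tried on simulated counts. The genes named were all 10 members, from each list up to 4 called genes per direction and compartment with at least 20 CPM, and the 2 genes most like each member. Alternatives were DESeq2 1.42.0, other scaling, no filter, a replicate block, each library left out, doublets kept, cells thinned to 1000 UMIs and Leiden resolution 2. With 2 libraries per diet, precision is limited by their number.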

Additional observations from a re-analysis of the deposited data

Results flagged for a closer look

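Flagged here are 4 differences between cell classes in the response to diet with an adjusted p under 0.05. They are interactions in edgeR with a term for each library (Benjamini-Hochberg adjustment over all genes). All were in pairs of classes chosen with the values known, so passing that threshold in part restates the choice. Without the library term 3 of the 4 did not pass (adjusted p = 0.12 for Slc16a1, 0.0502 for Slc2a5 and 0.063 for Slc2a3 in elongating spermatid-like cells). With it, 3.11% of all genes passed in the fit for Slc16a1, 10.9% in that for Slc2a5 and for Slc2a3 in round spermatid-like cells, and 4% in that for Slc2a3 in elongating spermatid-like cells. Slc16a1 had a diet ratio lower by 0.90 on the log2 scale in pachytene-like than in Leydig-like cells (difference -0.90 ± 0.21 SE), with both HFD libraries below both ND libraries in the former and overlapping groups in the latter. Slc2a5 had a ratio higher by 0.17 ± 0.03 in pachytene-like than in round spermatid-like cells. Both pairs came from a rule that took members called in one class with the opposite sign in another, so the choice rests on the difference fitted. Slc2a3 had a ratio higher by 0.23 ± 0.03 in round spermatid-like and by 0.31 ± 0.05 in elongating spermatid-like than in pachytene-like cells, and these pairs were chosen after the data had been seen, for members called in one of the classes.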

How the results depend on the processing

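Of the 10 members 6 were called in the whole testis, and 4 to 7 under every alternative run, the lowest with thinned cells, where Slc2a8, Slc16a1 and Hk1 lost their calls and Slc2a5 gained one. Within classes the 8 calls were less stable. Leaving out 1 library in turn gave between 2 and 13 calls, with 2 without HFD 1, 3 without HFD 2, 13 without ND 1 and 9 without ND 2. Thinning cells to 1000 UMIs gave 2 calls within classes (the cause was not tested), of which 1, Slc2a3 in round spermatid-like cells, was among the 8, and the other alternatives gave 6 to 10. Of the 16 interaction pairs, chosen for opposite signs, 2 passed and 0 without the library term. With the replicate block 7 members were called in the whole testis and 10 within classes. The deviations of libraries with the same number had correlations of -0.08 to 0.09 over the compartments. Counting noise pulls such correlations towards 0, so they cannot exclude a pairing. The main fit did not use the numbers to pair libraries. No single call reversed. Without HFD 1 and without HFD 2, 8 of 14 calls held in each case, without ND 2 12 and without ND 1 all 14. Slc2a3 in round spermatid-like cells had an adjusted p of 0.18 without the low-count filter, and Slc2a3 in elongating spermatid-like cells one of 0.12 without HFD 2. Slc2a8 in pachytene-like cells fell to a log2 ratio of 0.0027 with thinned cells and 0.08 at resolution 2. The class of highest level changed for Slc2a1, Slc2a5 and Slc2a8 in at least 1 alternative, between classes whose ranges overlapped, and for no other member.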
